A study of Homo sapiens with 8 samples.

Results

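The genes described here are SCD and 7 other genes of fatty acid and sterol synthesis and its control: FASN, ACACA, ACLY, ELOVL6, FADS2, SREBF1 and SREBF2. They are 8 of 52576 genes in the table, matched by symbol with 1 row each, and all 8 were among the 13979 genes tested, those averaging 1 RPKM or more. The set is taken to have been chosen by a measured value, the level of SCD, which was lower with guide 2 than with guide 1 to the same enhancer. The files name the genes by Ensembl identifier: ENSG00000099194.4 (SCD, chromosome 10), ENSG00000169710.5 (FASN, 17), ENSG00000132142.13 (ACACA, 17), ENSG00000131473.10 (ACLY, 17), ENSG00000170522.5 (ELOVL6, 4), ENSG00000134824.9 (FADS2, 11), ENSG00000072310.10 (SREBF1, 17) and ENSG00000198911.6 (SREBF2, 22), with chromosomes from GENCODE 29. RPKM scales reads to gene length and to library size, so levels of different genes can be set side by side. RNA came from NCI-H2009, a human lung adenocarcinoma line in long use, in 8 libraries. All cells, controls included, carried dCas9-KRAB, a catalytically dead Cas9 joined to a repressor domain, and grew in RPMI medium with 10% FBS. There were 2 libraries without any guide RNA, 2 with a guide lacking a target (the non-targeting guide), and 2 for each of the guides e3 #1 and e3 #2, called guide 1 and guide 2, which recognise the e3 enhancer. The no-guide and non-targeting libraries together are called the controls. The labels do not say whether the 2 libraries of a group are separate cultures, so p-values reflect only how these libraries vary, which could be technical, and they give no time after transfection.

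Fatty acids are built in the cytosol from acetyl-CoA. ACLY encodes the enzyme that makes it from citrate, ACACA the acetyl-CoA carboxylase that makes malonyl-CoA, and FASN the synthase that joins these units into palmitate. ELOVL6 lengthens palmitate, SCD puts the first double bond into the saturated chain, and FADS2 desaturates polyunsaturated chains. SREBF1 and SREBF2 encode the SREBP transcription factors, which are held in the endoplasmic reticulum by INSIG proteins when sterols are plentiful and otherwise move to the nucleus, where SREBF1 products favour fatty acid genes and SREBF2 products favour sterol genes.

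The windows in front of the genes are shown because the factors SREBP, NF-Y and SP1 act on promoters of this class. A promoter window from RefSeq (build GRCh38.p14, 250 bases before to 50 bases after a gene's start) was found for 7 members, with 11 windows in all. FASN had no entry. Matches to 4 motifs were searched on both strands, and matches were allowed to overlap. The sterol regulatory element was searched as TCACNCCAC, and the E-box of basic helix-loop-helix factors as CACGTG. The motif of NF-Y was searched as the letters of its name, CCAAT box, and the motif of SP1, the GC box, as GGGCGG. The sterol regulatory element was found in 1 of the 11 windows, that of SREBF2, and in 1.13% of all 35116 windows of that length. The CCAAT box was found in 7 of the 11 windows (5 members) and in 34.6% of all windows. The GC box was found in 9 of the 11 (7 members) and in 45.0% of all windows, and the E-box in 0 of the 11 and 7.26% of all windows. Windows of 1 gene can overlap. A match is a description of letters, not a site of binding. Sites with other letters, or outside these windows, were not searched. The windows of SCD (chr10:100346983-100347282, plus strand) and SREBF1 (chr17:17836937-17837236, minus strand) are printed because these members had the largest log2 differences between guide 2 and guide 1, both lower with guide 2. Those of SREBF2 (chr22:41832855-41833154, plus strand) and ACLY (chr17:41918973-41919272, minus strand, the first of 2 windows) are printed for contrast. Each is read 5′ to 3′ along the gene, and capitals mark matches to these motifs.
SCD: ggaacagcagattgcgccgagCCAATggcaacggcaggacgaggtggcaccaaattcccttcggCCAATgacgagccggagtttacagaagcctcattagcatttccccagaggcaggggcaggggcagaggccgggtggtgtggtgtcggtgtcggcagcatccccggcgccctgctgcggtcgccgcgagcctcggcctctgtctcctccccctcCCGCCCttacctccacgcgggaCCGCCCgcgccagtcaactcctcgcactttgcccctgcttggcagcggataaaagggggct
SREBF1: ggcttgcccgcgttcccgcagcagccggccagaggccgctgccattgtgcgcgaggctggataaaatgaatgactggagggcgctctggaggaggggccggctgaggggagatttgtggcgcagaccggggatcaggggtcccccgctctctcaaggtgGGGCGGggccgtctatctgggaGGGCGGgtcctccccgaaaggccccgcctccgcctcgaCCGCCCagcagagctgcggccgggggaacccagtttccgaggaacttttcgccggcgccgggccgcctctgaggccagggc
SREBF2: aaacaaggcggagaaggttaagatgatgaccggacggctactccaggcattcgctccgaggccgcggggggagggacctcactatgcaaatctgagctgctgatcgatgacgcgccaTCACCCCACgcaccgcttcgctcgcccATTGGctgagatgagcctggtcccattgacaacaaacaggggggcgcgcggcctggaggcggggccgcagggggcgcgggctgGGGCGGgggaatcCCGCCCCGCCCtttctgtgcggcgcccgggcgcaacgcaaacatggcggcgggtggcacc
ACLY: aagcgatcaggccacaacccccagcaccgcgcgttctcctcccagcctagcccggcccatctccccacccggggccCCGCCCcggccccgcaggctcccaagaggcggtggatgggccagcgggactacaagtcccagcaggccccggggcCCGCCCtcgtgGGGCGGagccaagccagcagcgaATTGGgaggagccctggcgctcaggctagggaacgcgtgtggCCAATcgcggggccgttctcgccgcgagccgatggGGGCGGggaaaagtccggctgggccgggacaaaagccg
The SCD window held 2 CCAAT boxes and 2 GC boxes, and the SREBF1 window held 3 GC boxes and no CCAAT box. The SREBF2 window held the sterol regulatory element, 1 CCAAT box and 3 GC boxes, and the ACLY window 2 CCAAT boxes and 4 GC boxes. GC boxes were in every printed window and in all 7 members with a window. Any link of these motifs with the levels was not tested.

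Depths inferred from the steps between low RPKM values lay between 3875080 and 5754470 reads per library. Between 345 and 5688 reads lay behind each value of a member, which by counting alone gives an error of 5.38% to 1.33%. MYC was lower in every e3 library (36.2 to 43.4 RPKM) than in every control library (72.7 to 90.1 RPKM). The no-guide libraries stood apart from the other 6 on the first principal component (-36.9 and -38.3 against 5.74 to 18.5), so the members and the called list genes are also given against the non-targeting guide alone. Of 12 markers of lung adenocarcinoma and epithelium, 8 were at or above 1 RPKM in every library, among them NKX2-1 and EPCAM, while SFTPA1 and SFTPC were at 0 in all libraries and NAPSA and SFTPB were low. Of 17 markers of other cell types, 16 were under 1 RPKM in every library and 6 were at 0 in all of them. Their summed level was 3.96 to 6.49 RPKM in the controls and 6.15 to 7.70 RPKM in the e3 libraries, most of it COL1A1 (means of 4.55 and 6.26 RPKM), while COL3A1, ADIPOQ and ALB were at 0. The part of these markers in the results was not tested.

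ACLY was the most abundant member, at 175.4 ± 17.2 RPKM (SD, n = 8), followed by FASN at 109.3 ± 28.2 RPKM and SCD at 71.1 ± 15.0 RPKM (SD, n = 8 each). The ranges of mean ± SD overlapped among FADS2 (33.0 ± 4.13 RPKM), SREBF2 (31.1 ± 2.54 RPKM) and SREBF1 (29.3 ± 4.39 RPKM; SD, n = 8 each). They also overlapped between ACACA (16.6 ± 2.09 RPKM) and ELOVL6 (15.7 ± 2.75 RPKM; SD, n = 8 each). These SDs include differences between the groups, and levels of different genes were not tested against each other. FASN varied most among the libraries, with the highest level 1.96 times the lowest, followed by SCD (1.85) and ELOVL6 (1.77). SREBF2 varied least (1.25 times). ACLY and FASN stood at nearly the same level in the first no-guide library, at 145.1 and 143.3 RPKM, and far apart in the first guide 2 library, at 186.8 and 75.2 RPKM.

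**Figure D1:**
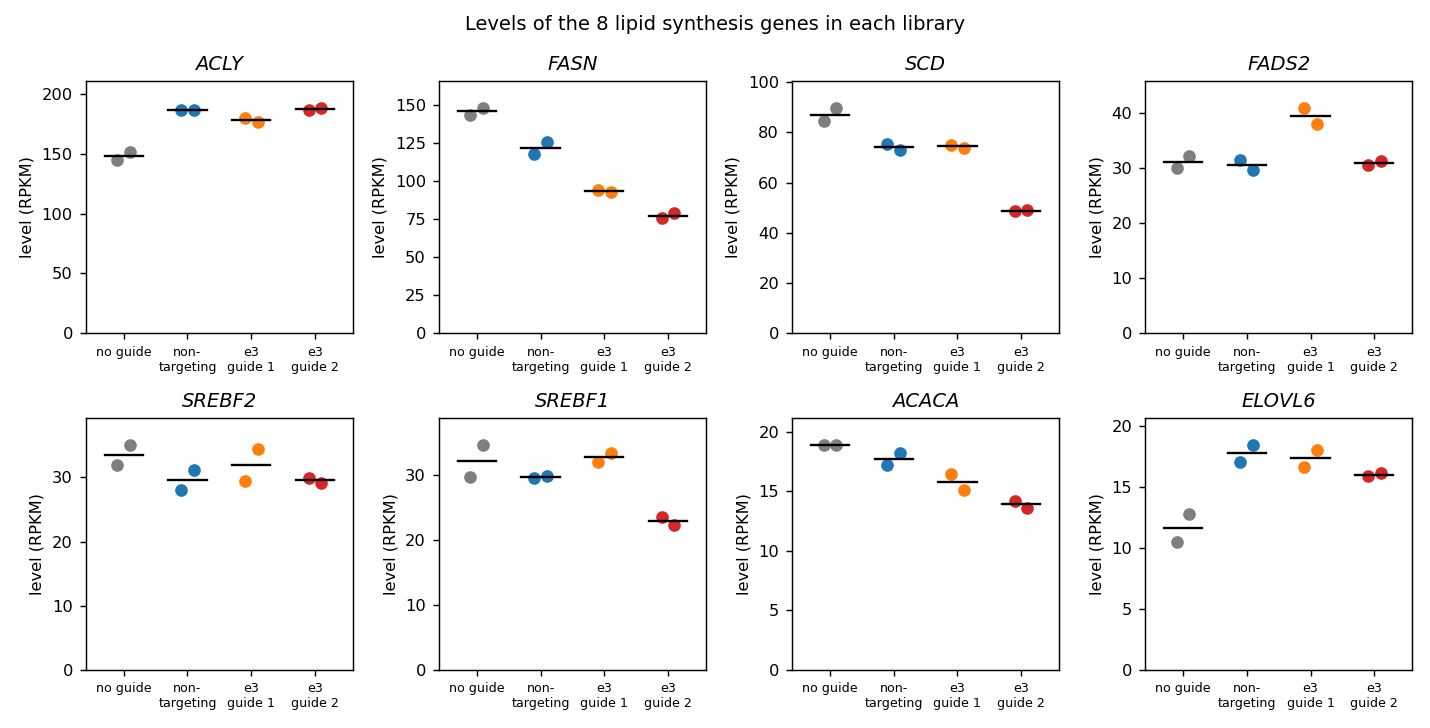
Level in RPKM (vertical axes, linear from 0) of each of the 8 genes in the 8 libraries, by group (horizontal axes); points are libraries and bars are the means of the 2 libraries of a group. FASN stepped down from no guide (means of 145.5 RPKM) to guide 2 (77.0 RPKM), SCD and SREBF1 were low with guide 2, FADS2 was high with guide 1, and ACLY and ELOVL6 were low without a guide.

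Fold changes below are on the log2(RPKM + 1) scale with their standard error, and a gene was called where limma's p, adjusted over all 13979 genes, was under 0.05. Models of the e3 guides took each library as a separate sample, although the 2 libraries of a group share a guide or a kind of control. Only the alternatives with an estimated correlation within groups and with group means as samples took the groups into account. Since RNA was taken from bulk cultures, fewer cells with a transcript and less of it per cell cannot be told apart. Between the e3 guides and the controls 1 of the 8 members was called, FASN, which was lower, beside 5.20% of all tested genes called, 2.63% higher and 2.58% lower. In 2 members, FASN and ACACA, every e3 library lay below every control, beside 7.51% of tested genes, and in 0 members above (7.58%, or 15.1% in both directions). The median change of the members was -0.10, beside -0.02 over all tested genes. The members did not move as one: their changes ran from -0.64 to 0.20.

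FASN, the last enzyme of palmitate synthesis, fell with both e3 guides. The no-guide libraries had 143.3 and 147.7 RPKM and the non-targeting libraries 117.4 and 125.4 RPKM. Those of guide 1 had 94.2 and 92.7 RPKM, and those of guide 2 had 75.2 and 78.8 RPKM. The 4 groups did not overlap, and the e3 libraries were the lowest. The e3 mean of 85.2 ± 9.64 RPKM was 63.9% of the control mean of 133.4 ± 14.4 RPKM (SD, n = 4 each). FASN fell by 0.64 ± 0.10 on the log2 scale against the controls (limma, adjusted p = 0.0101; 0.00686 to 0.407 over 16 alternatives). The call was lost with the mean of each group as 1 sample (limma, adjusted p = 0.407). There the call of MYC was lost too, and 1 gene in all was called. The other 15 alternatives kept the call of FASN, among them an estimated correlation within groups. FASN fell by 0.77 ± 0.10 against no guide alone (adjusted p = 0.00161) and by 0.51 ± 0.10 against the non-targeting guide alone (adjusted p = 0.0256). That last call was lost without the first or the second non-targeting library (adjusted p = 0.136 and 0.175), without the second guide 2 library (0.0559) and without a filter on low values (0.126). FASN also fell by 0.26 ± 0.05 from no guide to the non-targeting guide (adjusted p = 0.0167), so that its mean there was already 83.4% of the no-guide mean. This call was lost without either no-guide library (adjusted p = 0.0551 and 0.0886) and without the first non-targeting library (0.104).

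ACACA supplies malonyl-CoA to FASN. Both no-guide libraries had 18.9 RPKM of it, the non-targeting libraries 17.2 and 18.2, those of guide 1 16.4 and 15.1, and those of guide 2 14.2 and 13.6 RPKM. All e3 libraries lay below all controls, and those of guide 2 were the lowest. The e3 mean of 14.8 ± 1.22 RPKM was 81.1% of the control mean of 18.3 ± 0.842 RPKM (SD, n = 4 each). The change of -0.29 ± 0.08 did not pass (limma, adjusted p = 0.0702; 0.0503 to 0.476 over 16 alternatives), nor did that of -0.24 ± 0.10 against the non-targeting guide alone (adjusted p = 0.192). Against no guide alone it passed (-0.33 ± 0.09, adjusted p = 0.0468), but 8 of 14 alternatives lost that call (adjusted p of 0.0340 to 0.187 over all 14). Among them were leaving out the first no-guide library (0.185), the second (0.187), the second guide 1 library (0.0724) and either guide 2 library (0.0889 without the second).

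ACLY, which makes cytosolic acetyl-CoA, was lowest without a guide. The no-guide libraries had 145.1 and 151.7 RPKM and the non-targeting libraries 186.9 and 186.5 RPKM. Those of guide 1 had 180.3 and 177.2 RPKM, and those of guide 2 had 186.8 and 188.5 RPKM. The no-guide libraries were low and did not overlap with the other 6. ACLY rose by 0.33 ± 0.04 from no guide to the non-targeting guide (limma, adjusted p = 0.00176; 0.00104 to 0.0186 over 14 alternatives) and by 0.30 ± 0.05 from no guide to the e3 guides (adjusted p = 0.00547). The latter call was lost without the first no-guide library (adjusted p = 0.0618). Against the non-targeting guide alone the e3 guides gave -0.03 ± 0.05 (adjusted p = 0.789), and against both controls 0.14 ± 0.09 (adjusted p = 0.403).

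ELOVL6, the elongase of palmitate, was also lowest without a guide. The no-guide libraries had 10.5 and 12.8 RPKM, the non-targeting libraries 17.1 and 18.5, those of guide 1 16.7 and 18.1, and those of guide 2 15.9 and 16.2 RPKM. The no-guide libraries were again below the other 6. With the non-targeting guide its mean was 153.3% of the no-guide mean, a rise of 0.58 ± 0.11 (limma, adjusted p = 0.0129), and with the e3 guides it rose by 0.49 ± 0.10 from no guide (adjusted p = 0.0153). The first call was lost without the first no-guide library (adjusted p = 0.0637), the first non-targeting library (0.0504) or the second (0.0871), and the second without the first no-guide library (0.123). Against the non-targeting guide alone the change was -0.09 ± 0.09 (adjusted p = 0.623), and against both controls 0.20 ± 0.16 (adjusted p = 0.493). The comparisons with no guide share the no-guide libraries, so their results for ACLY and ELOVL6 are not separate evidence.

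**Figure D2:**
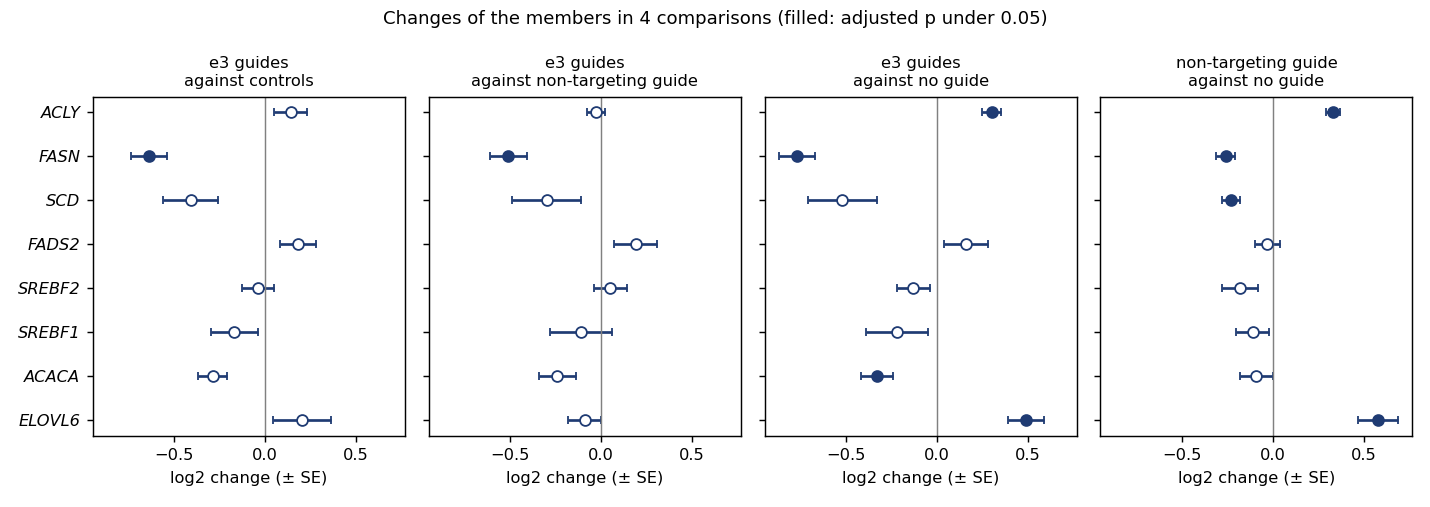
Change of each member (rows) on the log2(RPKM + 1) scale with its standard error (horizontal axes) in 4 comparisons (panels); filled points passed an adjusted p of 0.05. FASN was filled in every panel, while ACLY and ELOVL6 were filled only in the 2 comparisons with no guide and lay near 0 against the non-targeting guide (-0.03 and -0.09).

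SCD, the stearoyl-CoA desaturase, differed between the guides to the same enhancer. The no-guide libraries had 84.5 and 89.7 RPKM and the non-targeting libraries 75.4 and 73.1 RPKM. Those of guide 1 had 75.1 and 73.7 RPKM, and those of guide 2 had 48.5 and 48.9 RPKM. Guide 1 thus overlapped with the non-targeting guide, at 100.3% of its mean, and guide 2 lay below every other library, at 65.6% of it. Between 1125 and 2127 reads lay behind these values. Between guide 2 and guide 1 SCD was lower by 0.60 on the log2 scale. It was the 1 gene called lower there, beside 3 called higher, which is 0.0286% of tested genes in all, 0.0215% higher and 0.00715% lower. That contrast is taken to have chosen the set, so its value is a description, with no test, and nothing is read from the count. Its call was lost when any 1 of the guide or non-targeting libraries was left out.

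The e3 libraries as 1 group averaged 61.6 ± 14.8 RPKM of SCD, and the controls 80.7 ± 7.79 RPKM (SD, n = 4 each). The change of -0.41 ± 0.15 did not pass (limma, adjusted p = 0.159; 0.107 to 0.545 over 16 alternatives), nor did those against the non-targeting guide (-0.30 ± 0.19, adjusted p = 0.426) and against no guide (-0.52 ± 0.19, adjusted p = 0.104). From no guide to the non-targeting guide, in a model that takes its spread from all 4 groups, SCD fell by 0.23 ± 0.05 (adjusted p = 0.0334). Of 14 alternatives, 10 lost that call, and without the second no-guide library or the second non-targeting library the adjusted p was 0.154 and 0.159. It also missed the threshold when any other single library was left out, with adjusted p between 0.0532 and 0.0959. A processed pseudogene of SCD, SCDP1, that could share reads was listed at 0.00 to 0.393 RPKM.

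FADS2, which desaturates polyunsaturated chains, was high with guide 1. Those libraries had 40.9 and 38.0 RPKM, those of guide 2 30.6 and 31.3, the no-guide libraries 30.0 and 32.2, and the non-targeting libraries 31.4 and 29.6 RPKM. The guide 1 libraries did not overlap with any other, and the other 6 lay within 29.6 to 32.2 RPKM. The mean with guide 1 was 129.3% of that with the non-targeting guide, and the mean with guide 2 was 101.6% of it. With both guides together the change of 0.18 ± 0.10 against the controls did not pass (limma, adjusted p = 0.323), nor did that of 0.19 ± 0.12 against the non-targeting guide (adjusted p = 0.424) and that of 0.16 ± 0.12 against no guide (adjusted p = 0.419). The change from no guide to the non-targeting guide was -0.03 ± 0.07 (adjusted p = 0.851). Between guide 2 and guide 1 the difference was -0.34, which was not called.

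SREBF1, which encodes the SREBP form that favours fatty acid genes, was low with guide 2. Those libraries had 23.5 and 22.2 RPKM, those of guide 1 32.0 and 33.3, the non-targeting libraries 29.5 and 29.8, and the no-guide libraries 29.6 and 34.6 RPKM. The guide 2 libraries lay below all others, at 77.2% of the non-targeting mean, and those of guide 1 lay above the non-targeting libraries, at 110.2%. The difference between guide 2 and guide 1 was -0.50, next in size to that of SCD among the members, and was not called. With both guides as 1 group the e3 libraries gave -0.17 ± 0.13 against the controls (limma, adjusted p = 0.515), -0.11 ± 0.17 against the non-targeting guide (adjusted p = 0.761) and -0.22 ± 0.17 against no guide (adjusted p = 0.436). From no guide to the non-targeting guide the change was -0.11 ± 0.09 (adjusted p = 0.491).

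SREBF2, which encodes the form that favours sterol genes and whose window held the sterol regulatory element, passed in no comparison. The no-guide libraries had 32.0 and 35.1 RPKM, the non-targeting libraries 28.0 and 31.1, those of guide 1 29.4 and 34.4, and those of guide 2 29.9 and 29.2 RPKM. The non-targeting and guide 2 libraries lay below the no-guide libraries, and all other pairs of groups overlapped. The change with the e3 guides was -0.04 ± 0.09 against the controls (limma, adjusted p = 0.838) and 0.05 ± 0.09 against the non-targeting guide (adjusted p = 0.805), and the non-targeting guide gave -0.18 ± 0.10 against no guide (adjusted p = 0.292). The sign of the first and second of these turned when 1 library was left out, within 0.02 of 0.

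Set beside each other, the members showed 4 patterns over the groups. FASN and ACACA were lowest with guide 2, next lowest with guide 1, then with the non-targeting guide, and highest without a guide. In SCD and SREBF1 the guide 2 libraries lay below all others, while guide 1 stood at 100.3% and 110.2% of their non-targeting means. SCD was also lower in the non-targeting group (mean of 74.2 RPKM) than in the no-guide group (87.1 RPKM). In FADS2 the guide 1 libraries lay above all others, and in ACLY and ELOVL6 the no-guide libraries lay below all others. SREBF2 had none of these patterns. They are descriptions, and the share of all tested genes with each pattern was not counted. Separation of 2 groups was common among tested genes, as the shares below show. Between guide 2 and guide 1, 6 members lay lower without overlap and 1 (ACLY) higher, beside 20.5% and 20.9% of tested genes, or 41.4% in all. That contrast is taken to have chosen the set, so nothing is read from this count. Against no guide the e3 guides gave 4 called members, ACLY and ELOVL6 higher and FASN and ACACA lower, beside 16.7% of tested genes called, 8.68% higher and 8.03% lower. There 2 members lay higher without overlap and 3 lower, beside 18.4% and 22.6% of tested genes, or 41.0% in all. Against the non-targeting guide the e3 guides gave 1 called member, FASN, beside 6.84% of tested genes, 3.30% higher and 3.54% lower. FASN and ACACA lay lower there without overlap and 0 members higher, beside 16.3% and 16.0% of tested genes, or 32.3% in all. From no guide to the non-targeting guide 4 members were called, ACLY and ELOVL6 higher and FASN and SCD lower, beside 12.4% of tested genes, 6.55% higher and 5.81% lower. In that comparison 2 members lay higher without overlap and 4 lower, beside 27.2% and 29.5% of tested genes, or 56.7% in all. These comparisons share libraries, so the counts are not independent of each other.

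**Figure D3:**
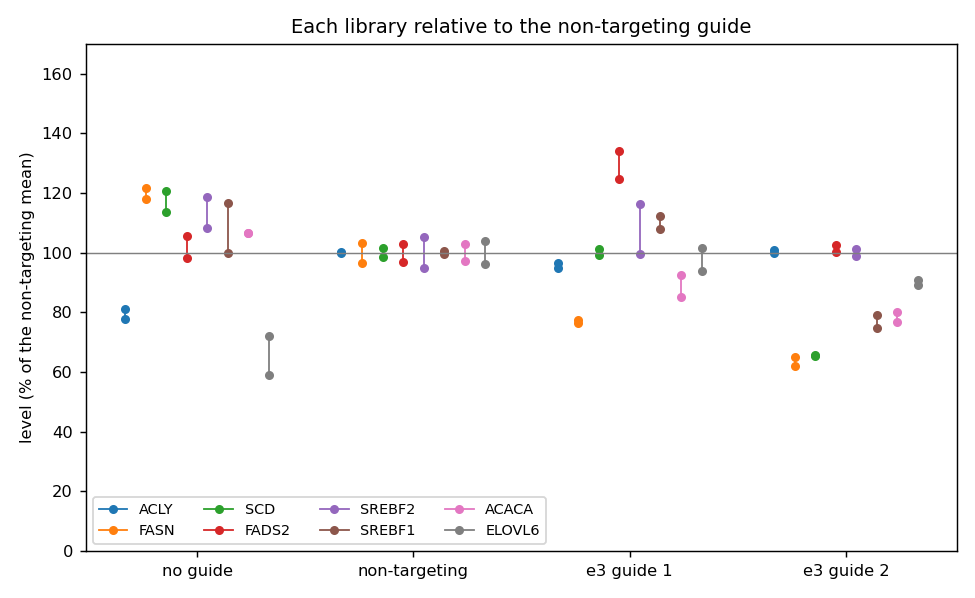
Level of each member in each library as a percent of the mean of the 2 non-targeting libraries (vertical axis), by group (horizontal axis); each line joins the 2 libraries of a group. With guide 1 both libraries of FADS2 and SREBF1 lay above the line at 100% and both of FASN, ACACA and ACLY below it, and with guide 2 FASN, SCD, SREBF1, ACACA and ELOVL6 lay below it.

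The other genes of lipid metabolism were taken from 9 lists of textbook pathway membership, with 150 distinct genes tested. Between the e3 guides and the controls 3 of them passed (2.00%, beside 5.20% of all tested genes), 2 higher and 1 lower. Their median change was -0.01, beside -0.02 over all genes. Of the 150 genes, 35 had an unadjusted p under 0.05 in limma. Such values were common among all tested genes: PNPLA2, 1 of the 35, ranked only 3010 of 13979 by p. The counts of such values per list below were not tested against that background.

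Of 13 genes listed under fatty acid supply and synthesis, 0 passed in limma, 1 had an unadjusted p under 0.05, and the median change was -0.10. The malic enzyme gene ME1, a source of NADPH, had a change of -0.33 ± 0.08 (adjusted p = 0.0531) and the mitochondrial malonyl transferase gene MCAT one of -0.24 ± 0.11 (adjusted p = 0.239). ME1 passed when only genes of at least 5 RPKM were tested (adjusted p = 0.0376). Of 16 other desaturases, elongases and partners, 0 passed, 3 had an unadjusted p under 0.05, and the median was 0.09. FADS3, a relative of FADS2, had 3.96 ± 0.734 RPKM in controls and 2.41 ± 0.290 RPKM in e3 libraries (SD, n = 4 each), a log2 change of -0.53 (adjusted p = 0.0613), and the elongase gene ELOVL5 had a change of 0.22 ± 0.07 (adjusted p = 0.0976). Of 18 genes for acyl-CoA activation and glycerolipid synthesis 0 passed and 7 had an unadjusted p under 0.05. Among them the acyl-CoA synthetase gene ACSL1 had a change of -0.44 ± 0.12 (adjusted p = 0.0723) and the phosphatidate phosphatase gene LPIN3 one of 0.42 ± 0.13 (adjusted p = 0.095).

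Of the 23 enzymes of sterol synthesis, the pathway that SREBF2 is known for, 0 passed in limma and 4 had an unadjusted p under 0.05. All 23 changes lay within 0.5 of 0, with a median of -0.07. LBR, a sterol reductase of the nuclear envelope, had a change of -0.34 ± 0.09 (adjusted p = 0.0528, and 0.0376 when only genes of at least 5 RPKM were tested).

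Of 14 genes of SREBP processing and sterol sensing, 1 rose and 13 did not pass, 3 had an unadjusted p under 0.05, and the median was 0.03. The gene that rose was INSIG2, which encodes a protein that holds SREBPs in the endoplasmic reticulum. Without a guide the libraries had 6.42 and 6.60 RPKM, the non-targeting libraries 7.81 and 6.81, those of guide 1 8.89 and 8.95, and those of guide 2 9.77 and 9.75 RPKM. Every e3 library was above every control library, and the rise was 0.39 ± 0.09 (limma, adjusted p = 0.041; 0.0308 to 0.432 over 16 alternatives). Of these, 11 lost the call, including the omission of any 1 library except the first non-targeting one, with adjusted p from 0.0690 to 0.124. Against the non-targeting guide alone it did not pass (0.32 ± 0.10, adjusted p = 0.119).

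Of 8 genes listed as LXR targets, 1 rose and 7 did not pass, 6 had an unadjusted p under 0.05, and the median was 0.22. In 4 of them every e3 library lay above every control, and in 1 below, beside 7.58% and 7.51% of all tested genes, or 15.1% in all. The list as a whole was not tested. ABCA1, which exports cholesterol from the cell, had 10.9 and 10.5 RPKM in the no-guide libraries, 15.0 and 13.7 in the non-targeting libraries, 23.8 and 22.1 in those of guide 1, and 25.0 and 23.9 RPKM in those of guide 2. The e3 libraries were all above the controls. It rose by 0.88 ± 0.11 against the controls (limma, adjusted p = 0.00642; 0.00403 to 0.407 over 16 alternatives) and by 0.69 ± 0.08 against the non-targeting guide alone (adjusted p = 0.00682). The call against the controls was lost with group means as samples (adjusted p = 0.407) and kept in the other 15 alternatives. ABCA1 also rose by 0.38 ± 0.09 from no guide to the non-targeting guide (adjusted p = 0.0295).

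Of 21 other regulators 0 passed and 3 had an unadjusted p under 0.05. PPARG, a nuclear receptor of fat cell formation, stood at a mean of 12.9 RPKM without a guide and at 7.27, 6.38 and 6.63 RPKM with the non-targeting guide, guide 1 and guide 2. Its change against the controls did not pass (-0.52 ± 0.20, adjusted p = 0.16) while that from no guide to the non-targeting guide did (-0.75 ± 0.14, adjusted p = 0.0109). USF2 had a change of -0.14 ± 0.05 against the controls (adjusted p = 0.163). Of 24 genes of fatty acid oxidation, 1 fell and 23 did not pass, 7 had an unadjusted p under 0.05, and the median was -0.06. ETFA, an electron carrier subunit of oxidation, fell by 0.42 ± 0.08 (30.2 ± 3.21 to 22.3 ± 0.878 RPKM, SD, n = 4 each; adjusted p = 0.0258; 0.0178 to 0.414 over 16 alternatives), and 9 alternatives lost the call, among them leaving out any 1 no-guide or e3 library (adjusted p from 0.0516 to 0.0860). ETFA did not pass against the non-targeting guide alone (-0.29 ± 0.07, adjusted p = 0.0552), and from no guide to the non-targeting guide its change was -0.25 ± 0.07 (adjusted p = 0.0666). Of 14 genes of lipid droplets and fatty acid uptake 0 passed, and 2 had an unadjusted p under 0.05. SLC27A3 and PNPLA2 had changes of 0.37 ± 0.14 (adjusted p = 0.163) and -0.16 ± 0.07 (adjusted p = 0.22).

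**Figure D4:**
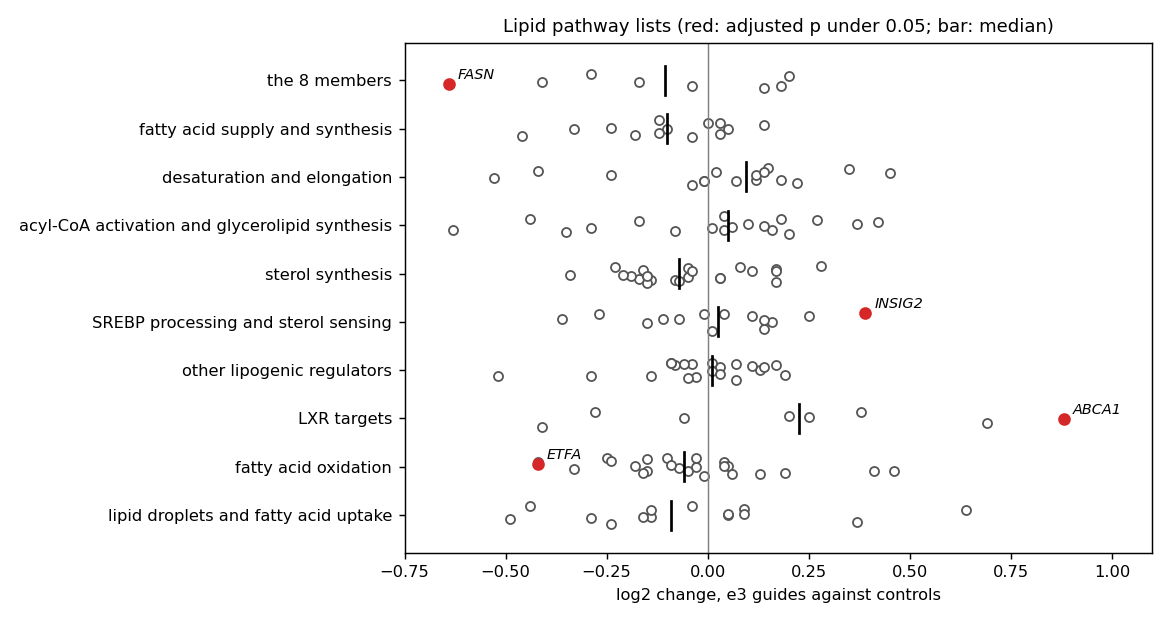
Change between the e3 guides and the controls on the log2(RPKM + 1) scale (horizontal axis) of each tested gene of the members and of the 9 lists (rows); red points passed an adjusted p of 0.05 and bars are medians. FASN (-0.64), INSIG2 (0.39), ABCA1 (0.88) and ETFA (-0.42) were red, and the medians lay between -0.10 and 0.22.

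Over the 8 libraries the genes whose log2 levels were most like those of SCD, among 4102 genes averaging 5 RPKM or more with a range of at least 0.5 on the log2 scale, were NEK2, FDXR and HMGB2 (Pearson r = 0.98 each) and CCNB2 and NUP88 (r = 0.97 each). The points share libraries and fall into 4 groups of 2, so these values describe a shared order of the groups. HMGB2 had means of 130.5 RPKM without a guide, 118.9 RPKM with the non-targeting guide, 112.3 RPKM with guide 1 and 91.7 RPKM with guide 2. NEK2 had means of 21.7, 19.8, 19.8 and 14.7 RPKM in the same order, which like SCD placed guide 1 with the non-targeting guide and guide 2 below both.

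Several members overlap other genes in the GENCODE 29 annotation. Among these overlaps are FADS2 with FADS1 and FEN1, SREBF1 with RAI1, SREBF2 with its antisense gene SREBF2-AS1, and ACLY with an antisense gene. ACACA overlaps C17orf78 and pseudogenes, and ELOVL6 overlaps RN7SL275P and a pseudogene. How strand was treated in counting is not given in the sources used here, so reads from such overlaps cannot be told apart. SCD and FASN overlap no other gene there.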

How the data were processed

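RNA of 8 NCI-H2009 libraries was measured after poly(A) selection, per the labels' protocols. The deposited values are RPKM, made by the authors, 1 column per library; hg19 and Cufflinks appear, with no role or version, per the submitters' processing notes. Aligner, counting, strand setting and annotation release are not given in the sources used here. Groups and replicate numbers come from the titles, and columns were matched to samples by name.

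Tests used limma 3.58.1 in R 4.3.3 on log2(RPKM + 1) for genes averaging 1 RPKM or more, with a variance trend, two-sided, and Benjamini-Hochberg adjustment over all genes tested. Comparisons of the e3 guides used models with 2 groups, on 8 libraries or, against 1 control, on 6. The non-targeting guide against no guide and guide 2 against guide 1 used a model with 4 groups. No count test was run, because the unit was RPKM. Depth was inferred from the steps between values, which were whole reads to within 0.03 in 99.5% of tested genes. The fit was tested on simulated data. Figures were drawn with matplotlib 3.10.9.

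The members and lists were chosen with earlier results of these data known. The rule for named genes took the 8 members, MYC, up to 4 called genes per list and direction or, with none called, the 2 of smallest p, and the 5 genes most like SCD. Some genes that this rule takes are not reported here. Alternatives were a pseudocount of 0.1, no filter, a floor of 5 RPKM on the mean, median-ratio and quantile scaling, a replicate block, each library left out, and, for the e3 guides against the controls, an estimated correlation within groups and group means as samples.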

Additional observations from a re-analysis of the deposited data

Results flagged for a closer look

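SCD differed between the guides under the same controls: its log2 difference of guide 2 from guide 1 was -0.60, with guide 1 at the level of the non-targeting guide. In SREBF1 the second no-guide library, at 34.6 RPKM, stood far from the other 3 control libraries (29.5 to 29.8 RPKM). In SREBF2 the second guide 1 library, at 34.4 RPKM, stood far from the other 3 e3 libraries (29.2 to 29.9 RPKM). Gaps were looked for among the 4 control and among the 4 e3 libraries of each of the 8 members. Such gaps arise by chance in about 1 in 20 sets of 4 like values, but each set here pools 2 groups.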

How the results depend on the processing

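Counts of called genes moved more than single changes did. For e3 guides against controls 727 genes were called (367 higher and 360 lower). The count was 406 without a filter, 387 with the replicate block, 256 with an estimated correlation within groups and 1 with group means as samples. With 1 library left out it ranged from 186 (without the first guide 2 library) to 581. Against the non-targeting guide alone 956 were called, 379 without a filter, 597 with the replicate block, and 6 to 962 with 1 library left out. The counts of 6 and 17 came from leaving out the first and second non-targeting library. Against no guide alone 2336 were called, and 936 to 2337 with 1 library left out. The lowest were 936 and 976, when either no-guide library was missing. From no guide to the non-targeting guide 1728 were called, and 870 to 1560 with 1 library left out. From guide 1 to guide 2 the count of 4 became 9 without a filter and with median-ratio scaling, 24 with a minimum of 5 RPKM, 13 with quantile normalization, 1 with the replicate block and 0 to 4 with 1 library left out. Of pathway list genes, 3 were called, 6 with a minimum of 5 RPKM, 1 with the replicate block or an estimated correlation, 0 with group means and 1 to 3 with 1 library left out.

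Of the members, FASN was the 1 called for e3 guides against controls, and 0 were with group means. Against the non-targeting guide the 1 called member became 0 without a filter and 0 to 1 with 1 library left out. Against no guide the 4 called members became 1 to 4, and from no guide to the non-targeting guide 1 to 3, with 1 library left out. From guide 1 to guide 2 no count of called members is given, because that contrast is taken to have chosen the set.

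No called member turned its sign under these alternatives. Signs turned for uncalled values near 0. They were FADS2 from no guide to the non-targeting guide (0.00 with median-ratio scaling, and -0.08 to 0.02 with 1 library left out, 0.01 without the second non-targeting one) and ACLY against the non-targeting guide (0.05 with quantile normalization). They were also SREBF1 from no guide to the non-targeting guide (-0.22 to 0.00 with 1 library left out) and SREBF2 with 1 library left out (-0.09 to 0.01 against the controls, -0.02 to 0.12 against the non-targeting guide and -0.21 to 0.01 from guide 1 to guide 2). Deviations of same-numbered libraries correlated between groups at -0.04 to 0.02 over 9034 genes. No shared shift by replicate number was thus seen, which does not show whether such libraries were handled together. Median-ratio and quantile scaling gave medians over all genes of -0.01 and -0.02, beside -0.02 as deposited. The cause of these changes was not tested. The counting error of the members was at most 5.38%, and its part in their spread was not tested.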
